A study of Mus musculus with 14 samples.

Results

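The cytosolic heat shock genes are 10 genes of protein folding, chosen by name: Hspa8, Hspa1a, Hspa1b, Hsph1, Dnajb1, Hsp90aa1, Hsp90ab1, Hspb1, Hspd1 and Hspe1. All 10 were found among the 20492 gene symbols of the deposited tables, each with 1 coding-sequence row. Their levels were compared in the brain of mice depleted of TRF2, which caps chromosome ends as part of shelterin. No member that the authors tested passed q at 0.05 in cortex or hippocampus, where 0.154% to 0.304% of all tested rows did. The pair of stress-inducible HSP70 genes, Hspa1a and Hspa1b, had the largest ratios between TRF2-depleted and control hippocampus, with small p-values only before adjustment. Their levels in these pools were low, at 1.10 to 2.46 FPKM. In cortex both were lower in the TRF2-depleted pool, and the authors did not test them there. The abundant chaperones Hspa8 and Hsp90ab1 were within a few percent of control in both TRF2-depleted tissues.

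Heat shock proteins are chaperones that hold unfolded proteins, refold them and pass them on. HSP70 proteins bind short greasy stretches in a cycle driven by ATP, which J proteins start and nucleotide exchange factors reset, and HSP90 proteins take over late folding intermediates such as kinases and steroid receptors. When unfolded proteins build up, the transcription factor HSF1 forms trimers and binds heat shock elements, inverted repeats of the letters GAA, in front of the inducible genes. Neurons keep high amounts of the constitutive forms and induce the stress forms weakly, while glial and vessel cells induce them readily. The proteins of Hspd1 and Hspe1, HSP60 and HSP10, work mainly as a chaperonin inside mitochondria, although they carry the same family name.

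Total RNA of C57BL/6 mice aged 3 months was sequenced, from cortex in 4 control and 3 TRF2-depleted samples and from hippocampus in 3 control and 3 TRF2-depleted samples. For 1 more TRF2-depleted sample the labels name cortex in 1 place and hippocampus in another, so it was placed in no group, and whether the pooled values hold it is not known here. The series text calls the animals WT and TRF2-DCX-cre. A Cre enzyme under the promoter of Dcx, which young neurons use as they migrate, thus marks the cells meant to lose TRF2. Other cells of the tissue are meant to keep it, and values of bulk tissue do not show which cells lost it. The hippocampus table has a further condition named DKO, and since no label describes it, the sources used here give no genotype, age or number of animals for it. The tables hold 1 FPKM value for each pooled condition, FPKM being fragments scaled to the length of the transcript and to the fragments mapped, so no spread between samples can be given and read depth is unknown.

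Terf2, which encodes TRF2, summed over its rows of the authors' deposited table to 3.59 FPKM in control cortex and to 0.202 FPKM after TRF2 depletion. The same sum was 2.01 FPKM in control, 0.883 FPKM in TRF2-depleted and 0.753 FPKM in DKO hippocampus in the authors' deposited table. All 8 pan-neuronal, 8 astrocyte and 10 oligodendrocyte markers were at 1 FPKM or more in all 5 conditions. Markers of other tissue differed between the pooled conditions. Over 12 choroid plexus markers, FPKM summed to 141 in control and 41.5 in TRF2-depleted cortex, with Otx2 listed at 0 in the latter. Penk and P2ry12, markers of striatal neurons and microglia, were also listed at 0 in that pool. The choroid plexus sums were 323, 549 and 24.0 in control, TRF2-depleted and DKO hippocampus. Most of these differences came from Ttr alone, with 93.3 and 1.15 FPKM in cortex and 264, 472 and 5.52 FPKM in hippocampus, in the same order. In cortex only 2 of the 12 markers were tested. Over 9 meningeal markers the sums were 289 and 259 in cortex and 198, 311 and 321 in hippocampus, in the same order. Of the hippocampus sums, Ptgds alone held 165, 265 and 283 FPKM. In bulk tissue, fewer cells of a type and less RNA per cell cannot be told apart.

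The inducible HSP70 genes are shown first, because they carry the largest ratios and because they are close copies. Hspa1a and Hspa1b lie side by side on chromosome 17 (mm10, chr17:34969359-34972156 and chr17:34956429-34959238, minus strand) and encode nearly the same stress-induced cytosolic chaperone. Their coding sequences in the GENCODE annotation, of 1923 and 1926 bases, aligned over 1923 bases with 8 differing bases, an identity of 99.6%. Of all stretches of 50 bases in the Hspa1a coding sequence, 82.4% occur unchanged in Hspa1b. The lines give the stretch of 60 coding bases (bases 1357 to 1416 of each coding sequence, 5′ to 3′) in which the copies differ most, with the 2 differing bases in capitals.
Hspa1a: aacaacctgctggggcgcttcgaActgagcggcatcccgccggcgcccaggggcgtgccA
Hspa1b: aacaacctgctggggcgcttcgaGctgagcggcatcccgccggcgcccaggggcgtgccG
The division of reads between the copies is therefore uncertain, and their sum is given beside each value. GENCODE also annotates a coding gene, Gm20481, on the opposite strand over 2225 bases of Hspa1a. The sources used here do not say whether the counting used strand, so reads of both genes cannot be told apart.

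RefSeq promoter sequences (GRCm38.p6, 250 bases before to 50 bases after the transcription start) matched 7 of the 10 genes with 10 windows, all but Hspa8, Hsp90aa1 and Hsp90ab1. Both phases of the paired heat shock unit, GAANNTTC and TTCNNGAA, were searched on both strands, and each reads the same on either strand. Of the 10 windows, 7 held at least 1 of these pairs, against 15.1% of all 32851 promoter windows of that length, and they belong to 6 of the 7 genes, the exception being Dnajb1. A run of 3 units, in which both kinds of pair overlap by 1 unit, was found in 4 of the 10 windows, of Hspd1, Hspe1 and Hsph1, against 0.603% of all windows. The windows of Hspd1 and Hspe1 share a repeat, and so do both windows of Hsph1, where the run lies after the start. A match is a description of the letters and not of binding. The promoter stretches of the inducible pair (chr17:34972177-34972276 and chr17:34959259-34959358, minus strand), of Hspb1 (chr5:135887789-135887848, plus strand) and of the start region that Hspe1 shares with Hspd1 (chr1:55088038-55088097, plus strand) are printed 5′ to 3′ with the paired units in capitals, since these genes are compared in the results.
Hspa1a: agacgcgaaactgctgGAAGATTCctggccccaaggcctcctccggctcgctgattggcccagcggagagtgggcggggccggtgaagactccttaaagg
Hspa1b: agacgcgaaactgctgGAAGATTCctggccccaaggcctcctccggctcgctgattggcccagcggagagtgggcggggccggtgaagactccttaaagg
Hspb1: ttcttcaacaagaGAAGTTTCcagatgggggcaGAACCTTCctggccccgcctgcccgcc
Hspe1: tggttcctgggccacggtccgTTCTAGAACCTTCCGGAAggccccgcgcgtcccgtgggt
The stretches of Hspa1a and Hspa1b are identical, with a pair of units that begins 104 bases before each start, and their whole windows differ at 4 of 300 bases. The repeat before Hspe1 begins 89 bases before its start and 144 bases before 1 of the divergent starts of Hspd1, which lies 216 bases from it. The other annotated start of Hspd1 lies 95 bases from that of Hspe1, on its other side, and its window holds no pair.

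**Figure D1:**
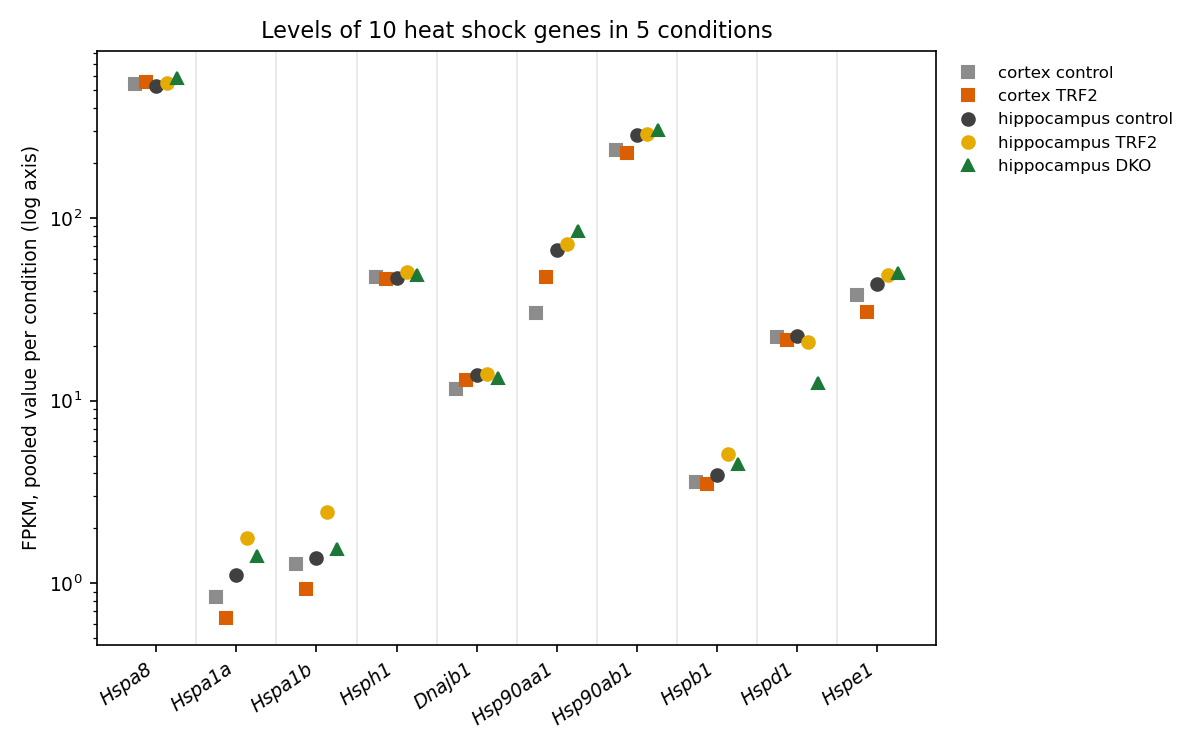
FPKM of the 10 genes (vertical axis, log scale) in 5 conditions, 1 pooled value per point with no error. Hspa8 is highest in all 5 conditions, at 525 to 586 FPKM, and Hspa1a is lowest, at 0.647 to 1.77 FPKM.

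The levels ran from about the middle of all gene symbols, where Hspa1a stood above 43.6% to 54.3% of them, to near the top, and kept nearly the same order everywhere. Hspa8, the constitutive HSP70 that also strips clathrin from vesicles, had 539 FPKM in control cortex and 558 FPKM after TRF2 depletion in the authors' deposited table. In control, TRF2-depleted and DKO hippocampus the authors' deposited table gives Hspa8 at 525, 546 and 586 FPKM. Among all gene symbols it stood in place 4 to 11 by FPKM, and it made up 52.0% to 58.7% of the summed FPKM of the 10 genes. Hsp90ab1, the constitutive HSP90, came next, with 235 and 228 FPKM in cortex and 284, 287 and 304 FPKM in hippocampus in the authors' deposited table. Hspa1b and Hspa1a were last in each of the 5 conditions. Control hippocampus had 212 times as much Hspa8 as Hspa1a and Hspa1b together per length, and TRF2-depleted hippocampus 129 times. In the middle of the order, Hsp90aa1, Hsph1 and Hspe1 changed places between conditions, and so did Hspd1 and Dnajb1 in DKO hippocampus. With 1 pooled value per condition, no spread is at hand to separate such neighbours.

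In hippocampus the stress-inducible pair was higher in the TRF2-depleted pool. Hspa1b had 1.37 FPKM in control, 2.46 FPKM in TRF2-depleted and 1.54 FPKM in DKO hippocampus in the authors' deposited table. Hspa1a had 1.10, 1.77 and 1.41 FPKM in the same order in the authors' deposited table. For both copies TRF2-depleted hippocampus was the highest pool and control the lowest. Between TRF2-depleted and control hippocampus the log2 ratio of Hspa1b was 0.85 (95% interval 0.29 to 1.41, implied by the deposited p), with p = 0.00305 and q = 0.415 in the authors' deposited table. That of Hspa1a was 0.68 (interval 0.09 to 1.28), with p = 0.0238 and q = 0.810 in the authors' deposited table. Summed over the pair, FPKM was 2.47 in control, 4.24 in TRF2-depleted and 2.95 in DKO hippocampus, a log2 ratio of 0.78 between TRF2-depleted and control. With 1 FPKM added to each value the log2 ratios were 0.55 for Hspa1b and 0.40 for Hspa1a.

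Neither copy passed the threshold of q at 0.05. Of the 10 genes, all tested here, 0 passed it, where 0.163% of all tested rows did (18 of 11054). At an unadjusted p under 0.05, 2 of 10 passed, where 4.89% of all tested rows did, and both were higher, as were 2.42% of rows. Since the copies share most of their sequence, these 2 are not independent of each other. Both copies were tested only in comparisons that hold the TRF2-depleted hippocampus pool, where their FPKM was highest. The share of all tested rows is therefore no fair measure for this count, and no conclusion is drawn from it. Of the 11054 rows, 69 had a p no larger than that of Hspa1b, and the same limit holds for this rank.

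**Figure D2:**
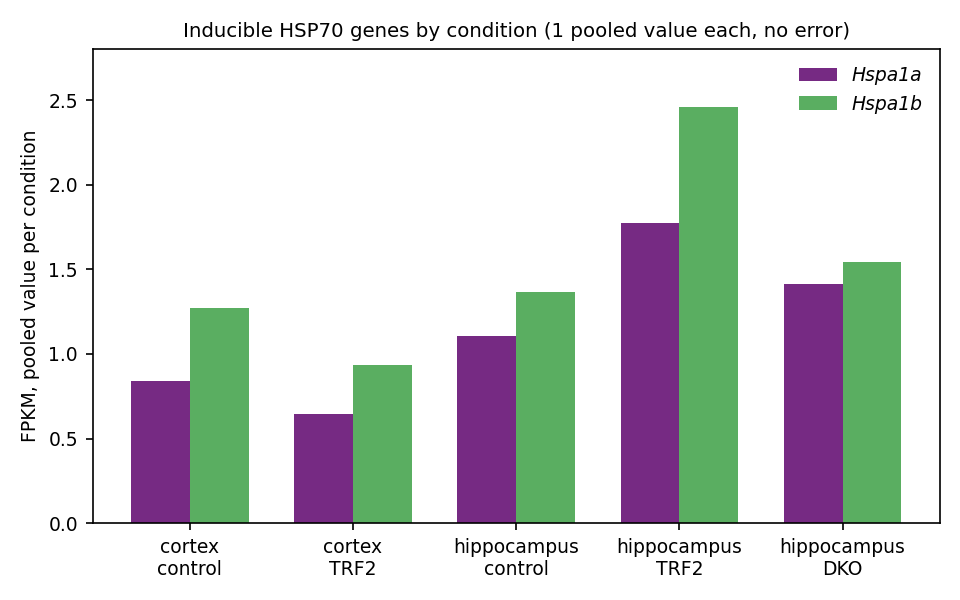
FPKM of Hspa1a and Hspa1b (vertical axis, bars from 0) in the 5 conditions, 1 pooled value per bar with no error. The bars of TRF2-depleted hippocampus, at 1.77 and 2.46 FPKM, are the highest, and those of TRF2-depleted cortex, at 0.647 and 0.935 FPKM, the lowest.

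Other markers moved with this comparison. The 6 tested meningeal markers were all higher in TRF2-depleted hippocampus (median log2 ratio 0.59, 1 called at q of 0.05). So were 7 of 7 tested choroid plexus markers (0.63, 0 called) and 6 of 7 tested vessel markers (0.24, 0 called). The 9 tested markers of dentate granule neurons were all lower (median -0.89, 6 called). Over all tested rows 0.163% were called. The part of these markers in the ratios of Hspa1a and Hspa1b was not tested. The meningeal markers summed to 321 FPKM in DKO and 311 FPKM in TRF2-depleted hippocampus, of which Ptgds alone held 283 and 265 FPKM. Of the 6 tested meningeal markers, 4 were lower and 2 higher in DKO than in TRF2-depleted hippocampus (median log2 ratio -0.11). The choroid plexus sum in DKO hippocampus was 24.0 FPKM.

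The remaining HSP70 machine stayed near control in the same comparison. Hspa8 had a log2 ratio of 0.06 between TRF2-depleted and control hippocampus (interval -0.28 to 0.40), with p = 0.744 in the authors' deposited table. Hsph1, the HSP110 protein that releases ADP from HSP70, had 46.8, 50.3 and 48.9 FPKM in control, TRF2-depleted and DKO hippocampus in the authors' deposited table. Its log2 ratio between TRF2-depleted and control was 0.11 (interval -0.14 to 0.35). Dnajb1, the HSP40 protein that starts the HSP70 cycle and is itself induced by heat, had 13.8, 14.1 and 13.3 FPKM in the same order in the authors' deposited table. Its log2 ratio was 0.03 (interval -0.25 to 0.31), so these intervals leave out a doubling of Hspa8, Hsph1 and Dnajb1. A p that misses the threshold does not show that the levels were equal.

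The HSP90 pair and the small heat shock protein were also tested and not called. Hsp90aa1, the inducible HSP90, had 66.6, 72.2 and 85.2 FPKM in control, TRF2-depleted and DKO hippocampus in the authors' deposited table, and its log2 ratio between TRF2-depleted and control was 0.12 (interval -0.48 to 0.71). That of the constitutive Hsp90ab1 was 0.01 (interval -0.31 to 0.34). Hspb1, the small heat shock protein HSP27, which holds unfolded proteins without using ATP and is best known in glia and vessels, had 3.93, 5.10 and 4.50 FPKM in the same order in the authors' deposited table. Its log2 ratio of 0.38 (interval -0.27 to 1.03) was the third largest of the 10, with p = 0.254 in the authors' deposited table. The 3 highest ratios thus belonged to the 3 genes with the lowest levels.

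The chaperonin genes, which share a start region, were also tested and not called, and the difference between them was not tested. Hspe1, which encodes HSP10, had 43.5, 48.9 and 50.1 FPKM in control, TRF2-depleted and DKO hippocampus in the authors' deposited table. Hspd1, which encodes HSP60, had 22.5, 20.9 and 12.4 FPKM in the same order in the authors' deposited table. The DKO pool was thus the highest for Hspe1 and the lowest for Hspd1. Between TRF2-depleted and control hippocampus the log2 ratios were 0.17 (interval -0.34 to 0.68) and -0.10 (interval -0.98 to 0.77). The ratio of Hspe1 to Hspd1 in FPKM was 1.94 in control, 2.34 in TRF2-depleted and 4.03 in DKO hippocampus. In GENCODE the genes overlap on opposite strands over 112 bases, and 6 and 5 pseudogenes are named after Hspe1 and Hspd1, so that reads can be shared with copies. The deposited rows of both genes also carry the same locus (chr1:55077834-55091317). How reads were divided between Hspe1 and Hspd1 is not known here, and its part in these ratios was not tested.

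Over all 10 genes, 9 were higher and 1 lower in TRF2-depleted than in control hippocampus, with a median log2 ratio of 0.11. The median of the 9820 tested genes was 0.00, and the quartiles of their single ratios were -0.15 and 0.16. Of the 10 log2 ratios, 7 were under 0.2 in size, as were 59.7% of those of tested genes.

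**Figure D3:**
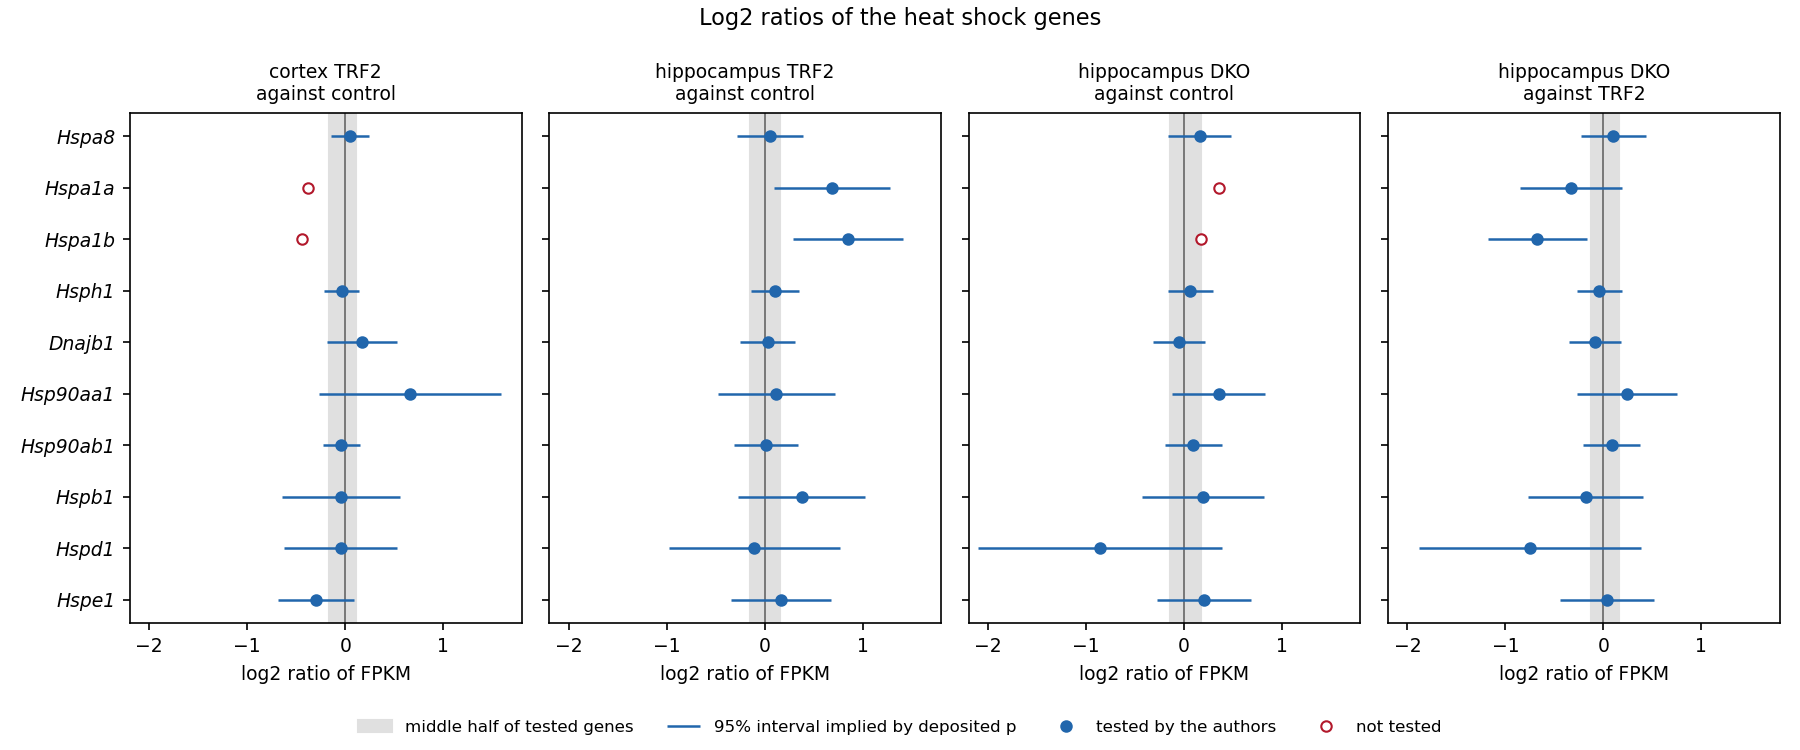
Log2 ratio of FPKM (horizontal axis) of the 10 genes in 4 comparisons. Filled points were tested by the authors, with the 95% interval implied by the deposited p as a line, open points were not tested, and the grey band runs from the lower to the upper quartile of all tested genes. The intervals that leave out 0 are those of Hspa1a and Hspa1b in TRF2-depleted against control hippocampus and of Hspa1b in DKO against TRF2-depleted hippocampus.

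In the cortex the inducible pair was lower in the TRF2-depleted pool, and the authors' table marks both genes as not tested. The authors' deposited table gives Hspa1b at 1.27 FPKM in control cortex and 0.935 FPKM after TRF2 depletion, which is a log2 ratio of -0.45. It gives Hspa1a at 0.841 and 0.647 FPKM, with a log2 ratio of -0.38 (the authors' deposited table). With 1 FPKM added to each value these ratios were -0.23 and -0.16. The sum of the pair was 2.11 and 1.58 FPKM (log2 ratio -0.42), and whether it differs from the hippocampal ratio of 0.78 was not tested, since the table gives no p for it. The immediate early genes, which activity and handling switch on within minutes, were lower in the same comparison, with 3 of 21 tested genes called lower (Per1, Jund and Arc) and a median log2 ratio of -0.28. In TRF2-depleted hippocampus 0 of 22 were called and the median was 0.02, and the difference between the tissues was not tested. In cortex 14 of the 21 were lower at an unadjusted p under 0.05, while over all tested rows of that comparison 0.304% were called and 6.24% had such a p in either direction. Their part in the cortical ratios of Hspa1a and Hspa1b was not tested.

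The largest cortical ratio among the 10 was that of Hsp90aa1, with 30.3 FPKM in control cortex and 47.7 FPKM after TRF2 depletion in the authors' deposited table. Its log2 ratio was 0.66 with a wide interval of -0.27 to 1.59, with p = 0.165 and q = 0.638 in the authors' deposited table. The deposited locus of the row begins at 110690877 on chromosome 12 in the cortex table and at 110690700 in the hippocampus table, so the deposited loci differ at the 3′ end of the gene. Hsp90ab1 was within a few percent of control (log2 ratio -0.04, interval -0.23 to 0.15). The ratio of Hsp90ab1 to Hsp90aa1 in FPKM was 7.75 in control and 4.78 in TRF2-depleted cortex, and 4.27, 3.97 and 3.57 in control, TRF2-depleted and DKO hippocampus.

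The other cortical values had log2 ratios between -0.30 and 0.17. The log2 ratio was 0.05 for Hspa8 (interval -0.15 to 0.25), -0.03 for Hsph1 (interval -0.21 to 0.14) and 0.17 for Dnajb1 (interval -0.19 to 0.53). The authors' deposited table gives Hspb1 at 3.60 FPKM in control cortex and at 3.49 FPKM after TRF2 depletion. Hspd1 had 22.2 and 21.5 FPKM and Hspe1 37.6 and 30.6 FPKM in the authors' deposited table, the latter with a log2 ratio of -0.30 (interval -0.69 to 0.09). Of the 8 genes tested in cortex 0 passed q at 0.05, where 0.304% of tested rows did, and 0 had an unadjusted p under 0.05, where 6.24% of tested rows did. Over all 10, 3 were higher and 7 lower, with a median log2 ratio of -0.04 beside -0.03 for the 8656 tested genes.

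The effect of TRF2 depletion was set against itself between the tissues for the 8 genes tested in both. With errors implied by the deposited p and a Benjamini-Hochberg adjustment over 8330 genes, 0 of the 8 differed, and 2 of all genes did. At an unadjusted p under 0.05 the count was also 0 of 8, where 5.44% of genes reached it. The cortex minus hippocampus difference of log2 ratios was -0.46 for Hspe1 (interval -1.11 to 0.18) and 0.54 for Hsp90aa1 (interval -0.56 to 1.65). For Hspa8 it was -0.01 (interval -0.40 to 0.38). The test treats the tissues as independent, and nothing in the labels says whether they came from the same animals.

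Control levels were set side by side across the tables, which the authors normalized separately, so no test is given. Per length, 9 of the 10 genes had a control hippocampus to control cortex log2 ratio between -0.04 and 0.39. The exception was Hsp90aa1, at 30.3 FPKM in control cortex and 66.6 FPKM in control hippocampus in the authors' deposited table, and this is a log2 ratio of 1.14. The deposited loci of Hsp90aa1 differ between the tables at the 3′ end, as do those of Dnajb1, whose control ratio was 0.25.

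The DKO pool was compared with control and with TRF2-depleted hippocampus. These comparisons share pooled values with each other and with that of TRF2-depleted against control, so they are given side by side and not as repeats. Against control, Hspa1a and Hspa1b were not tested by the authors and had log2 ratios of 0.35 and 0.17 (0.20 and 0.10 with 1 FPKM added). Hspd1 had the largest ratio in size, -0.85 (interval -2.10 to 0.39), with p = 0.178 and q = 0.886 in the authors' deposited table. Hsp90aa1 had a log2 ratio of 0.36 (interval -0.12 to 0.83), Hspe1 of 0.20 (interval -0.27 to 0.68) and Hspa8 of 0.16 (interval -0.16 to 0.48). The ratios of Hsph1, Dnajb1, Hsp90ab1 and Hspb1 were between -0.05 and 0.20. Over all 10, 8 were higher and 2 lower, with a median of 0.17 beside 0.01 for the 9814 tested genes. In the same comparison 9 of 9 tested dentate granule neuron markers were lower (median -0.65, 4 called), 7 of 7 choroid plexus markers were lower (-2.12, 4 called), 5 of 6 meningeal markers were higher (0.43, 1 called) and 9 of 10 microglial markers were higher (0.23, 0 called), and their part in the ratios of the heat shock genes was not tested. Of the 8 genes tested 0 passed q at 0.05 (0.181% of tested rows did) and 0 had an unadjusted p under 0.05 (6.71% did).

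Against the TRF2-depleted pool, Hspa1b was lower in DKO hippocampus at an unadjusted level. Its log2 ratio was -0.68 (interval -1.18 to -0.17), with p = 0.00895 and q = 0.605 in the authors' deposited table. Of the 11017 tested rows, 131 had a p no larger. Hspa1a had a log2 ratio of -0.33 (interval -0.86 to 0.19), with p = 0.216 in the authors' deposited table. Hspd1 had -0.75 (interval -1.89 to 0.39) and Hsp90aa1 0.24 (interval -0.27 to 0.75). Of the 10 genes 0 passed q at 0.05, where 0.154% of tested rows did, and 1 passed an unadjusted p under 0.05, where 4.79% of rows did. That gene, Hspa1b, was lower, as were 1.88% of rows. It was tested only in comparisons that hold the TRF2-depleted hippocampus pool, its highest. These shares and its rank among the tested rows are therefore no fair measure for it. The other 6 genes had log2 ratios between -0.18 (Hspb1) and 0.10 (Hspa8), and the median of the 10 was -0.06 beside 0.01 for the 9818 tested genes. Choroid plexus markers were lower in DKO than in either other hippocampal pool (4 of 7 tested called lower in each comparison), and their part in these ratios was not tested. With 1 FPKM added the ratios of Hspa1b and Hspa1a were -0.45 and -0.20. The sum of Hspa1a and Hspa1b had a log2 ratio of -0.52 between these pools and of 0.26 between DKO and control.

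The wider chaperone network was described with 9 lists of partner and stress genes. None of their genes passed q at 0.05 in any of the 4 comparisons, where 0.154% to 0.304% of all tested rows did. The counts at an unadjusted p under 0.05 were between 0 and 2 genes a list in a comparison. Over all tested rows 4.79% to 6.71% had such a p. The lists share a few genes with each other (Bag3, Hspb8, Hspa5, Hspa9, Dnaja3, Dnajb9, Dnajb11 and Dnajc3 are in 2 lists each). Hsf2, a heat shock factor active in development and in the nervous system, had 4.98 and 4.94 FPKM in cortex and 6.02, 5.18 and 6.55 FPKM in hippocampus in the authors' deposited table. Summed over its rows, Hsf1, the master regulator, had 4.40 and 2.92 FPKM in cortex and 2.67, 2.54 and 2.52 FPKM in hippocampus in the authors' deposited table. Hsf4, best known from the lens, is split over 3 rows, of which 1 stood at 1.79 FPKM in control against 0.519 FPKM in TRF2-depleted hippocampus, with p = 0.0948 in the authors' deposited table. Another of its rows stood at 0.782 and 1.10 FPKM, and the rows summed to 2.57 and 1.62 FPKM, in the same order in the authors' deposited table. Of 3 tested genes of HSF and its regulators in cortex and 4 in each hippocampus comparison, 0 had an unadjusted p under 0.05.

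Partners of HSP70 gave values on both sides of control. Of 16 tested J protein genes in TRF2-depleted against control hippocampus, 8 were higher and 8 lower. The largest ratio in size was that of Dnajb5, with 7.03, 0.0201 and 1.39 FPKM in control, TRF2-depleted and DKO hippocampus in the authors' deposited table. It was not among the genes with an unadjusted p under 0.05 in TRF2-depleted against control hippocampus. Dnajb12, a membrane J protein of the endoplasmic reticulum, had 2.36, 4.26 and 4.60 FPKM in control, TRF2-depleted and DKO hippocampus, with p = 0.0498 and p = 0.0190 against control in the authors' deposited table. Dnaja4 had 13.6, 11.0 and 12.1 FPKM in the same order, with p = 0.0453 between TRF2-depleted and control in the authors' deposited table. Bag4, a nucleotide exchange factor of HSP70, had 16.1, 12.6 and 13.5 FPKM, with p = 0.00630 and p = 0.0342 against control in the authors' deposited table. Stub1, the ubiquitin ligase CHIP that binds HSP70 and HSP90, had 27.3 and 22.8 FPKM in cortex, with p = 0.0341 in the authors' deposited table. The q-values beside these p-values ran from 0.409 (Stub1) to 0.886 (Dnaja4, and Dnajb12 between TRF2-depleted and control) in the authors' deposited table. In cortex 19 of 22 tested co-chaperone genes were lower, with a median log2 ratio of -0.06 beside -0.03 for all tested genes.

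The other HSP70 and HSP110 genes, which include those of the endoplasmic reticulum and mitochondria, had 7 of 9 tested genes higher in TRF2-depleted than in control hippocampus (median 0.08) and 0 of 9 higher in DKO than in TRF2-depleted hippocampus (median -0.11). Hspa13, a microsomal member, had 7.57, 9.46 and 7.71 FPKM in control, TRF2-depleted and DKO hippocampus, with p = 0.0658 and, between DKO and TRF2-depleted, p = 0.0420 in the authors' deposited table. TRF2-depleted hippocampus was thus the highest of the 3 pools for Hspa13, which is named here for its small p. Both counts above share the TRF2-depleted pool, so they are not independent of each other. The authors' deposited table gives Hspa1l, the testis-rich neighbour of Hspa1a and Hspa1b, at 1.71, 1.81 and 1.41 FPKM in the same order.

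Among small heat shock proteins, Cryab, the αB-crystallin of oligodendrocytes and astrocytes, had 39.6 and 27.4 FPKM in control and TRF2-depleted cortex, with p = 0.00150 and q = 0.0871 in the authors' deposited table. In hippocampus it had 36.1, 27.7 and 36.5 FPKM in control, TRF2-depleted and DKO, with p = 0.0304 for TRF2-depleted against control in the authors' deposited table. The TRF2-depleted pool was the lower in both tissues, and no comparison passed q at 0.05. Oligodendrocyte markers were lower in cortex as well (8 of 10 tested, median log2 ratio -0.28, summed FPKM 859 and 775), beside 2 of 10 lower in TRF2-depleted hippocampus (median 0.10), and their part in the level of Cryab was not tested. Hspb8, a partner of Bag3, had 3.16 and 2.32 FPKM in cortex, with p = 0.0694 in the authors' deposited table.

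The remaining lists held few differences. The cytosolic chaperonin TRiC, which folds actin and tubulin, had 6 of 8 subunits higher in TRF2-depleted than in control hippocampus (median 0.03), and 0 of 8 had an unadjusted p under 0.05 in any comparison, the smallest being those of Cct6a (p = 0.221) and Cct5 (p = 0.395) between DKO and TRF2-depleted in the authors' deposited table. Mitochondrial chaperones and proteases, partners of Hspd1 and Hspe1, had medians of 0.02 in TRF2-depleted and 0.04 in DKO against control hippocampus, with 0 of 9 at an unadjusted p under 0.05. Dnaja3, a mitochondrial J protein, has 2 rows, and the lower of its p-values was 0.0562, for 9.72 and 13.4 FPKM in TRF2-depleted and DKO hippocampus in the authors' deposited table. Its other row went the other way, with 5.09 and 2.66 FPKM, and the rows summed to 14.8 and 16.1 FPKM, in the same order in the authors' deposited table. Trap1, the mitochondrial HSP90, had 12.5, 13.8 and 14.7 FPKM in control, TRF2-depleted and DKO hippocampus in the authors' deposited table. Chaperones of the endoplasmic reticulum had 11 of 15 genes higher in TRF2-depleted hippocampus (median 0.10) and 0 of 15 at an unadjusted p under 0.05, and calreticulin (Calr) had 77.4, 83.7 and 89.3 FPKM in the same order in the authors' deposited table. Dnajc3, a J protein of that compartment, had 10.2, 10.3 and 8.82 FPKM, and the smallest p in the list, 0.0774 between DKO and TRF2-depleted, in the authors' deposited table.

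The list of other stress-induced genes covers several kinds of stress and not heat alone. It had 9 of 10 tested genes lower in TRF2-depleted cortex (median -0.18) and 8 of 13 higher in TRF2-depleted hippocampus (median 0.02). Hmox1, the haem oxygenase of oxidative stress, had 2.49, 1.35 and 2.00 FPKM in control, TRF2-depleted and DKO hippocampus, with p = 0.0171 for TRF2-depleted against control in the authors' deposited table. In TRF2-depleted hippocampus Hmox1 was thus lower and Hspa1b higher than in control, and neither passed the adjusted threshold. Serpinh1 had 3.67, 1.00 and 2.45 FPKM in control, TRF2-depleted and DKO hippocampus in the authors' deposited table. It was not among the genes with an unadjusted p under 0.05 in TRF2-depleted against control hippocampus.

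**Figure D4:**
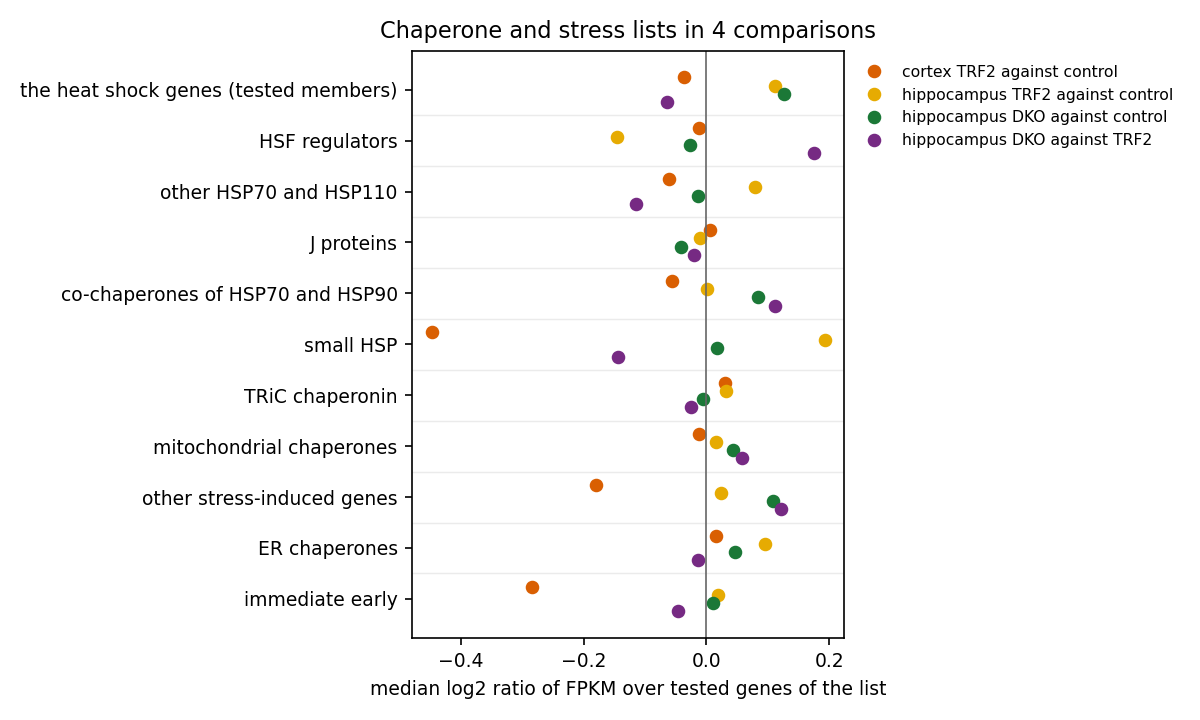
Median log2 ratio of FPKM (horizontal axis) over the tested genes of the heat shock genes, 9 chaperone and stress lists and the immediate early genes, in 4 comparisons. Most medians lie between -0.2 and 0.2, with the small heat shock proteins (-0.45 over 3 genes) and the immediate early genes (-0.28) in cortex outside.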

How the data were processed

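Libraries of total RNA were made with a NEBNext Ultra kit from column-purified RNA, per the labels' protocols. CASAVA 1.8, TopHat2, Cufflinks, Cuffdiff and the build mm10 are named in the submitters' processing notes, while the sources used here give no settings, annotation or further versions. The authors deposited FPKM values, 1 pooled value per condition and coding-sequence row, with a p-value and a q-value for each tested row, per the file headers. Pooling leaves no spread between samples, depth is unknown, and nothing ties samples to animals.

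FPKM was summed over the rows of a gene and log2 ratios were computed from it without a pseudocount. Rows the authors tested were called where the deposited q was at most 0.05. The error implied by a deposited p is the size of the log2 ratio over the normal quantile of that p. It gave the 95% intervals and the test between tissues. The hippocampus table has 52696 rows that involve DKO, a condition in no label.

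The members and lists were chosen with earlier results of these data known. The genes named in the lists were called genes or, where there were none, the 2 with the smallest p. A gene that this rule names is not reported here. Hsf1 and the examples of levels beyond these were added after their values were seen. Python 3.11.15, numpy 2.4.6, pandas 2.3.3, scipy 1.17.1, Biopython 1.88 and matplotlib 3.10.9 were used.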

Additional observations from a re-analysis of the deposited data

How the results depend on the processing

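No paired analysis was possible because each table holds 1 pooled value per condition and its columns carry no replicate number, and for the same reason no replicate could be left out. The count of heat shock genes called was 0 in each of the 4 comparisons at a deposited q of 0.05, at a q of 0.1, after adjustment over the tested rows of 1 comparison alone, and over rows with at least 1 FPKM. Of the 10 genes, 8 were tested in cortex and in DKO against control hippocampus. All 10 were tested in TRF2-depleted against control and in DKO against TRF2-depleted hippocampus. At a deposited q of 0.05, 0.154% to 0.304% of all tested rows were called. In TRF2-depleted against control hippocampus the count at an unadjusted p was 2 under 0.05 and 1 (Hspa1b) under 0.01. The other counts and the medians of the log2 ratios stayed within 1.5 times or 0.1 of the values given, under the most abundant row, 0.1 or 1 FPKM added, centring and equal totals. Of 200 recomputed log2 ratios of single genes, 196 stayed within their implied error (or within 0.1 where none was to be had) and 0 changed sign. The 4 others had 1 FPKM added, which shrinks low genes: Hspa1b went from 0.85 to 0.55 in TRF2-depleted hippocampus and from -0.45 to -0.23 in cortex, and Hspa1a from -0.38 to -0.16 in cortex and from 0.35 to 0.20 in DKO against control. What the data cannot resolve are the spread between animals, the division of reads between Hspa1a and Hspa1b, and the genotype behind DKO.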
